A study of Rattus norvegicus with 6 samples.

Results

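The genes described here are the EGF family ligands Egf, Hbegf, Tgfa, Areg and Btc, the ERBB receptors Egfr, Erbb2, Erbb3 and Erbb4, and the receptor inhibitor Errfi1. They were chosen by symbol, 10 of the 31368 genes in the table, and each symbol matched a single row. RNA of renal tissue was sequenced in 6 libraries from wild-type male Sprague-Dawley rats, 3 of a chronic kidney disease (CKD) model and 3 Sham controls, and the design text places the model in rats 8 weeks old. No source used here says how the disease was induced or whether each library came from its own animal, so p-values measure the spread between these libraries, which may be technical.

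EGF family ligands are made as membrane-anchored precursors and are cut from the cell surface by ADAM proteases. The ligands named above bind the extracellular part of EGFR, and some of them also ERBB4. The receptors then pair up and switch on the RAS-ERK and PI3K-AKT pathways. ERBB2 has no known ligand and ERBB3 only a weak kinase, so both signal mainly in pairs with other members. In the kidney, EGF is made by the thick ascending limb and the distal convoluted tubule and passes into the urine, while HB-EGF, TGF-alpha and amphiregulin are known from injured tubules.

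Areg and Errfi1 fell in CKD, by about 8.23-fold and 5.74-fold against Sham. Egf, the most abundant ligand, averaged 576 ± 245 CPM in CKD and 2070 ± 703 CPM in Sham (CPM, counts relative to the library size scaled by TMM; SD, n = 3 each), and did not pass the test. Erbb2 averaged 95.4 ± 22.4 CPM in CKD and 44.1 ± 14.2 CPM in Sham, and did not pass either. The other 6 genes, namely Hbegf, Tgfa, Btc, Egfr, Erbb3 and Erbb4, overlapped between the groups. By edgeR's quasi-likelihood test with Benjamini-Hochberg adjustment over all 15371 genes tested (threshold 0.05), 2 of the 10 genes were lower and 0 higher, where 1.15% of all genes were lower and 2.67% higher. At an unadjusted p under 0.05 there were 3 lower and 1 higher, beside 23.8% of all genes in either direction, and DESeq2 called 3 lower and 1 higher, where it called 7.27% of all genes lower and 8.97% higher. CKD and Sham did not overlap in 4 of the 10 genes, 3 lower and 1 higher, beside 31.2% of all genes (12.4% lower and 18.8% higher), so the share in either direction together is near the background. The median log2 fold change of the 10 was -0.73, beside -0.01 over all genes tested.

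**Figure D1:**
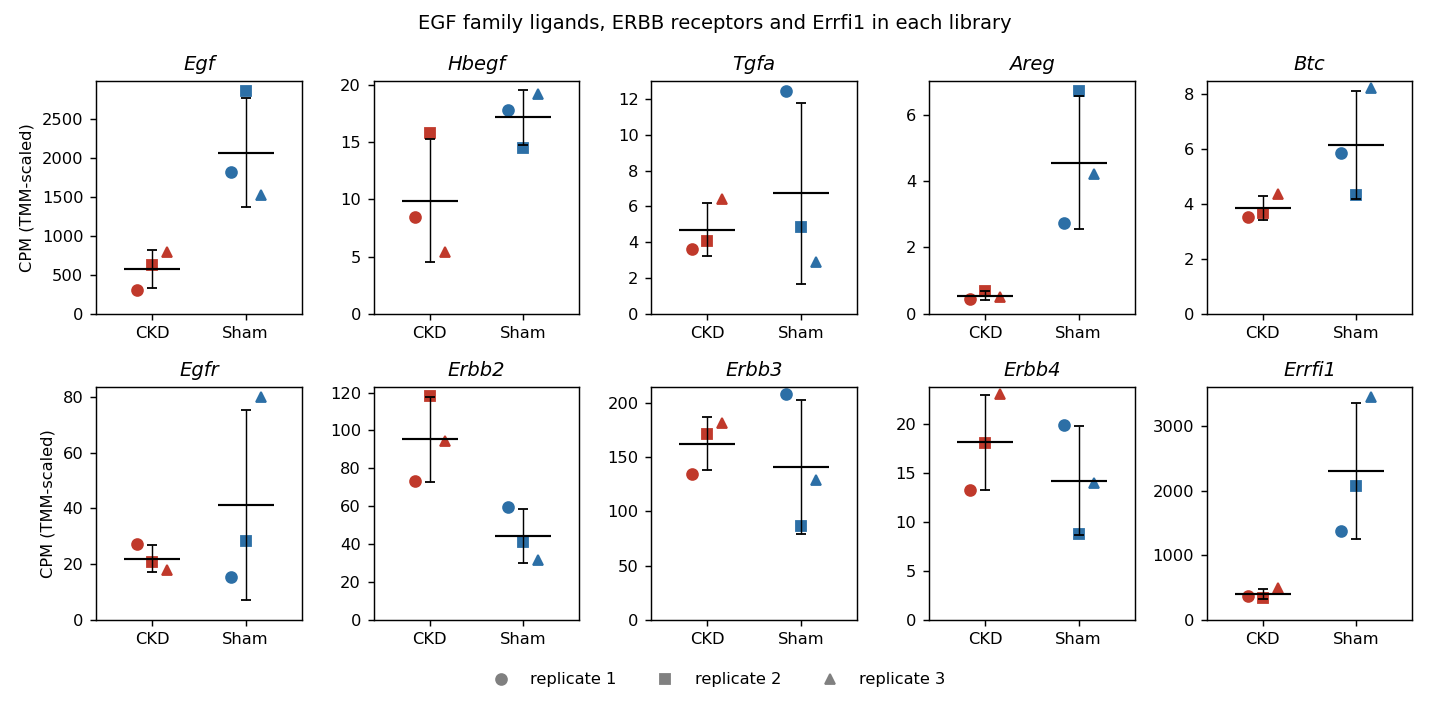
Level of each gene in each library, as TMM-scaled CPM on linear axes that start at 0, with CKD (red) left of Sham (blue); symbols give the replicate number, horizontal bars the mean and error bars the SD (n = 3 each). Egf, Areg and Errfi1 lie lower in all 3 CKD libraries than in any Sham library, Erbb2 lies higher in all 3, and the other 6 genes overlap.

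Total counts ran from 17240755 to 17503644 in the CKD libraries and from 15918035 to 17409090 in the Sham libraries, and the 10 genes together took 0.112% to 0.183% of the counts in CKD and 0.305% to 0.47% in Sham. The Sham libraries stood apart from each other: mitochondrial genes took 14.4%, 37.9% and 15.3% of the counts in Sham 1, 2 and 3, beside 8.83% to 10.8% in CKD. Over all genes 411 were higher and 176 lower, and 2047 were higher and 181 lower when scaled by library totals alone, a scaling that put the median log2 fold change of all genes at 0.41. Markers fitting renal tissue were present: summed levels of 12 proximal tubule markers were 15630 to 21510 CPM in CKD and 8695 to 30890 CPM in Sham. In the same libraries 3 of 10 macrophage markers (Mrc1, Itgam and C1qa) rose, with summed levels of 634 to 1553 CPM in CKD and 164 to 414 CPM in Sham. Also 3 of 11 injured tubule markers (Havcr1, Vim and Spp1) rose, with sums of 3515 to 10410 CPM in CKD and 750.3 to 1542 CPM in Sham. Of these 11 markers, 8 had a log2 fold change above 0 and 3 below. At an unadjusted p under 0.05 in edgeR, 5 were higher and 1 lower. Fibroblast markers summed to 724 to 1226 CPM in CKD and 64.1 to 429.8 CPM in Sham (1 of 6, Col1a1, rose), and lymphocyte markers to 16.1 to 26.7 CPM in CKD and 5.87 to 6.55 CPM in Sham (1 of 7 tested, Cd3g, rose). Collecting duct markers summed to 543.5 to 622 CPM in CKD and 681 to 3318 CPM in Sham, and 0 of 9 tested passed in edgeR (Avpr2 was listed at 0 in all libraries), with a median log2 fold change of -1.18 and 3 lower at an unadjusted p under 0.05. Fewer cells of a type and less RNA per cell cannot be told apart in such bulk samples, and the part that other cell types play in the values below was not tested.

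The stretches of DNA before the start sites of the 4 genes whose groups did not overlap are shown because these genes carry the comparison. RefSeq promoters (build GRCr8) matched 9 of the 10 genes by symbol, all but Erbb3. The lines below hold the 250 bases before the annotated start, 5′ to 3′ on the gene's own strand. Capitals mark exact matches on either strand to the TATA box (TATAAA), the cyclic AMP response element CRE (TGACGTCA), the AP-1 site (TGANTCA), the GC box (GGGCGG) and the CCAAT box (CCAAT).
Areg (chr14:17265642-17265891, minus strand): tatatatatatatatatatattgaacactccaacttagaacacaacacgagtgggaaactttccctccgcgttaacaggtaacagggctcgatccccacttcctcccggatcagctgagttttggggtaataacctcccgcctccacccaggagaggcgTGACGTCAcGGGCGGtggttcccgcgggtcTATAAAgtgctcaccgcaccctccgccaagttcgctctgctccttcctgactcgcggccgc
Errfi1 (chr5:166606591-166606840, plus strand): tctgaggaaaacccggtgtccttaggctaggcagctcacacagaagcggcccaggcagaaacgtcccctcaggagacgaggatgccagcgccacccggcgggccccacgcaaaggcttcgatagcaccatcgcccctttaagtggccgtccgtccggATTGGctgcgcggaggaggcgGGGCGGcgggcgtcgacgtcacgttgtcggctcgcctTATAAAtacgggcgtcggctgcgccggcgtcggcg
Egf (chr2:220976298-220976547, minus strand): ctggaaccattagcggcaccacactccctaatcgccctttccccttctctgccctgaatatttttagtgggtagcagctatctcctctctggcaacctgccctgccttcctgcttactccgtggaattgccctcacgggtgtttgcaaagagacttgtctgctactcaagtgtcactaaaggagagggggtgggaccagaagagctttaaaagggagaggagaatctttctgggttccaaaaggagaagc
Erbb2 (chr10:83907351-83907600, plus strand): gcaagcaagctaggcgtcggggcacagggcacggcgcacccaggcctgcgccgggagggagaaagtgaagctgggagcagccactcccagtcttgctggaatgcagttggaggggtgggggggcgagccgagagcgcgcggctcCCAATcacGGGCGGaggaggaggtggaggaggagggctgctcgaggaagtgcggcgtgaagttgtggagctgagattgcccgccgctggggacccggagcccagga

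The Areg stretch held a CRE from 91 to 84 bases before the start, a GC box from 82 to 77 and a TATA box from 61 to 56. The Errfi1 stretch held a CCAAT box from 93 to 89 bases before the start, a GC box from 72 to 67 and a TATA box from 35 to 30. The TATA box was in Areg and Errfi1 and in none of the other 7 promoters matched, and a link to their fall was not tested. The CRE was in Areg alone of the 9, and the AP-1 site in none of them. Among 33469 RefSeq promoters of the same length, 12.9% held the TATA box, 1.59% the CRE, 6.34% the AP-1 site, 30.5% the GC box and 34.0% the CCAAT box. Erbb2 held a CCAAT box and a GC box, and the Egf stretch held none of these letters. None of the motifs overlapped another in these 4 stretches. The matches describe the letters and are not evidence that a factor binds there.

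Among the ligands, Areg encodes amphiregulin, which binds EGFR. In the deposited table it lies on chromosome 14 from 16972187 to 16981535 on the minus strand, near Btc, which spans 16707982 to 16747049 on the plus strand. The submitters' processing notes name Rnor_6.0, but the build of the table's coordinates is uncertain. Areg had 9, 14 and 10 counts in CKD 1, 2 and 3, against 41, 96 and 60 counts in Sham 1, 2 and 3. Scaled, that was 0.434, 0.696 and 0.512 CPM in CKD, against 2.73, 6.71 and 4.22 CPM in Sham. All CKD libraries were below all Sham libraries, and Sham 2 was the highest. CKD over Sham came to -3.04 ± 0.51 on the log2 scale (SE; edgeR adjusted p = 0.0365), from low counts that make each CKD value uncertain. The call was lost when any library but Sham 1 was left out. The edgeR adjusted p was 0.169 without CKD 1, 0.162 without CKD 2 and 0.0665 without CKD 3. It was 0.0594 without Sham 2 and 0.106 without Sham 3. Most of these losses were not particular to Areg. Over all genes, 0 were called higher and 0 lower without CKD 1 and without CKD 2. The counts were 0 and 2 without Sham 2, 1 and 6 without Sham 3, and 340 and 73 without CKD 3. Over all 6 fits with a library left out the log2 fold change of Areg ran from -3.36 (without Sham 1) to -2.69 (without Sham 2). limma-voom gave an adjusted p of 0.0524.

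Egf encodes the precursor of epidermal growth factor. It had 6428, 12540 and 15487 counts in CKD 1, 2 and 3, against 27282, 40986 and 21685 counts in Sham 1, 2 and 3. As CPM these were 310.1, 623 and 793 in CKD, against 1819, 2864 and 1526 in Sham. The highest CKD library was below the lowest Sham library. With a log2 fold change of -1.85 ± 0.47 (SE), Egf did not pass (edgeR adjusted p = 0.0704). DESeq2 gave -1.90 with an adjusted p = 0.000322, while limma-voom gave an adjusted p of 0.0684. With each library left out in turn the log2 fold change stayed between -2.14 (without CKD 3) and -1.54 (without CKD 1), and none of these 6 fits called it.

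Marker genes of the nephron segments that make EGF spread widely over the Sham libraries. Umod, the thick ascending limb protein uromodulin, stood at 783, 1869 and 1976 CPM in CKD 1, 2 and 3, against 5897, 2233 and 1261 CPM in Sham 1, 2 and 3. Slc12a3, the sodium chloride cotransporter of the distal convoluted tubule, stood at 404, 430.5 and 354 CPM in CKD, against 95.1, 1893 and 755 CPM in Sham. Sham 1 was thus the highest library for Umod and the lowest for Slc12a3. Summed over 12 thick ascending limb markers, the levels were 1690 to 3618 CPM in CKD and 2563 to 8674 CPM in Sham. Over 10 distal convoluted and connecting tubule markers they were 1383 to 1534 CPM in CKD and 445 to 4055 CPM in Sham, with Pvalb listed at 0 in all 6 libraries. In edgeR 0 genes of either list passed, with 2 and 1 lower at an unadjusted p under 0.05. Of the 12 thick ascending limb markers, 10 had a log2 fold change below 0 and 2 above, with a median of -0.81. Of the 9 distal convoluted and connecting tubule markers tested, 6 were below 0 and 3 above, with a median of -0.16.

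Taken per gene length within a library, Egf RNA was 0.235, 0.198 and 0.239 times that of Umod in CKD 1, 2 and 3, against 0.183, 0.763 and 0.72 times in Sham 1, 2 and 3. Relative to Slc12a1, the sodium-potassium-chloride cotransporter of the thick ascending limb, Egf stood at 1.11, 1.27 and 1.01 in CKD, against 1.15, 3.34 and 3.33 in Sham. Both ratios were lower in CKD than in Sham 2 and Sham 3, and overlapped because of Sham 1. Relative to Slc12a3, Egf stood at 0.594, 1.12 and 1.73 in CKD, against 14.8, 1.17 and 1.56 in Sham, so that CKD 3 lay above Sham 2 and Sham 3. These ratios need no scaling between libraries and were chosen with the values known (two-sided exact permutation p = 0.4 for Umod, 0.2 for Slc12a1 and 0.4 for Slc12a3). The part that segment content plays in the Egf values was not tested.

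**Figure D2:**
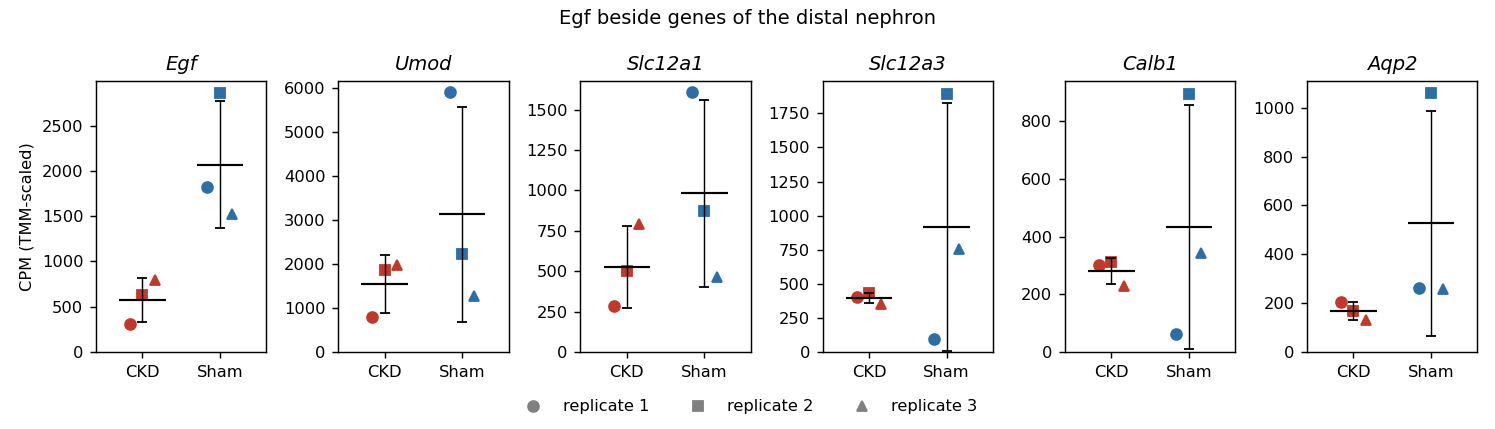
Egf beside thick ascending limb genes (Umod, Slc12a1), distal tubule genes (Slc12a3, Calb1) and the collecting duct water channel gene Aqp2, as TMM-scaled CPM per library on linear axes from 0; CKD is left of Sham, symbols give the replicate number, and bars the mean and SD (n = 3 each). Egf and Aqp2 lie lower in all 3 CKD libraries than in any Sham library, while the other 4 genes overlap, with Sham 1 highest for Umod and Slc12a1 and Sham 2 highest for Slc12a3, Calb1 and Aqp2.

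Hbegf encodes heparin-binding EGF-like growth factor, which binds EGFR and ERBB4. It stood at 8.44, 15.8 and 5.43 CPM in CKD 1, 2 and 3, against 17.9, 14.5 and 19.2 CPM in Sham 1, 2 and 3. CKD 2 lay above Sham 2, so the groups overlapped. Hbegf had a log2 fold change of -0.80 ± 0.40 (SE), which did not pass (edgeR adjusted p = 0.269), and -1.30 without CKD 2 or -0.50 without CKD 3.

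Btc encodes betacellulin, another ligand of EGFR and ERBB4. It stood at 3.52, 3.68 and 4.35 CPM in CKD, against 5.87, 4.33 and 8.23 CPM in Sham. CKD 3 and Sham 2 lay side by side, and the log2 fold change was -0.67 ± 0.36 (SE; edgeR adjusted p = 0.298).

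Tgfa encodes transforming growth factor alpha, a ligand of EGFR. It stood at 3.62, 4.07 and 6.40 CPM in CKD, against 12.5, 4.82 and 2.89 CPM in Sham. Sham 1 was the highest of the 6 libraries and Sham 3 the lowest. For Tgfa the log2 fold change was -0.52 ± 0.56 (SE; edgeR adjusted p = 0.62), or 0.24 without Sham 1 and -0.94 without Sham 3.

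Of the remaining EGF family ligands, 4 of 6 had few or no counts. Ereg (epiregulin) was listed at 0 in all 6 libraries, as were the broadly used genes Mapk3 and Junb, so these zeros are not read as a lack of RNA. Epgn (epigen) had 0 to 3 counts, Nrg3 0 to 1 and Nrg4 0 to 10, and none of these 4 entered the test. The neuregulin Nrg1, a ligand of ERBB3 and ERBB4, had 691, 545 and 338 counts in CKD 1, 2 and 3, against 530, 667 and 1718 counts in Sham 1, 2 and 3. Scaled to CPM, Nrg1 stood at 33.3, 27.1 and 17.3 in CKD, against 35.3, 46.6 and 120.9 in Sham. The groups were thus apart only narrowly and only after TMM scaling, as CKD 1 and CKD 2 had more counts than Sham 1. Nrg1 did not pass (log2 fold change -1.38 ± 0.49, SE, edgeR adjusted p = 0.14), and the value was -0.73 without Sham 3. Nrg2 had 45, 91 and 22 counts in CKD, against 12, 10 and 6 counts in Sham (log2 fold change 2.01 ± 0.64, SE; edgeR adjusted p = 0.112), with 1.36 without CKD 2.

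Among the receptors, Erbb2 had 1524, 2382 and 1841 counts in CKD 1, 2 and 3, against 895, 588 and 450 counts in Sham 1, 2 and 3. As CPM these were 73.5, 118 and 94.3 in CKD, against 59.7, 41.1 and 31.7 in Sham. Every CKD library was above every Sham library, with Sham 1 closest to CKD. Its log2 fold change was 1.11 ± 0.30 (SE), which did not pass (edgeR adjusted p = 0.076). It passed without Sham 1 (1.34, edgeR adjusted p = 0.0347) and with scaling by library totals alone (1.53, edgeR adjusted p = 0.0208). In DESeq2 it passed as well (1.06, adjusted p = 0.0204). These settings called more genes higher over the whole table, 789, 2047 and 1379 in that order, beside 411 in the main fit. Over all alternatives the adjusted p of Erbb2 ran from 0.0204 to 0.273.

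Egfr, the receptor that all 5 ligands bind, stood at 27.3, 20.6 and 17.98 CPM in CKD 1, 2 and 3, against 15.3, 28.2 and 79.8 CPM in Sham 1, 2 and 3. The 3 CKD libraries fell between Sham 1 and Sham 2, and Sham 3 was far above the rest. Egfr had a log2 fold change of -0.90 ± 0.56 (SE), which did not pass (edgeR adjusted p = 0.362), and -0.058 without Sham 3. Sham 3 was also the highest of the 6 libraries for Errfi1 and for the ligand gene Nrg1.

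Erbb3 stood at 134, 171 and 181 CPM in CKD, against 208, 86.1 and 129 CPM in Sham. Erbb4 stood at 13.3, 18.1 and 23.0 CPM in CKD, against 19.9, 8.73 and 14.0 CPM in Sham. In both genes the lowest library was Sham 2, and Sham 1 lay above at least 2 CKD libraries. Log2 fold changes were 0.20 ± 0.34 for Erbb3 and 0.35 ± 0.36 for Erbb4 (SE; edgeR adjusted p = 0.76 and 0.595). Without Sham 2 the value was -0.095 for Erbb3 and 0.058 for Erbb4.

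The inhibitor gene Errfi1, also known as Mig6, encodes a cytoplasmic protein that binds the kinase domain of EGFR and blocks it, and its own transcription is raised by growth factor signalling and by glucocorticoids. In the table it lies on chromosome 5 from 161323998 to 161337282 on the plus strand. It had 7580, 6905 and 9640 counts in CKD 1, 2 and 3, against 20738, 29739 and 48974 counts in Sham 1, 2 and 3. As CPM these were 366, 343 and 494 in CKD, against 1383, 2078 and 3447 in Sham. The highest CKD library stood well below the lowest Sham library, while the Sham libraries differed among themselves. Errfi1 fell by 2.52 ± 0.45 on the log2 scale (SE; edgeR adjusted p = 0.0394). It was lost as a call without CKD 1 (edgeR adjusted p = 0.175), CKD 2 (0.188), CKD 3 (0.0692), Sham 2 (0.0569) or Sham 3 (0.101). In most of these fits few or no genes of the whole table were called, as given for Areg. Over all fits with a library left out the log2 fold change of Errfi1 ran from -2.82 (without Sham 1) to -2.18 (without Sham 3). limma-voom gave an adjusted p = 0.0421 and DESeq2 one of 5.5e-09.

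Set against its target within each library, Errfi1 RNA per length was 14.1, 17.4 and 28.8 times that of Egfr in CKD 1, 2 and 3, against 95.0, 77.2 and 45.3 times in Sham 1, 2 and 3. Erbb2 per length was 0.498, 0.631 and 0.475 times that of Erbb3 in CKD, against 0.262, 0.435 and 0.224 times in Sham. In neither ratio did the groups overlap. Each had a two-sided exact permutation p of 0.1, the smallest that 3 libraries against 3 can give. Adjusted over the 8 ratios computed, which were chosen with the values known, it was 0.4. Errfi1 and Erbb2 were apart by themselves, so these ratios are not separate results. All other ratios overlapped, among them Erbb2 over Egfr, Erbb3 over Egfr and Egf over Hbegf (exact permutation p = 0.2, 0.5 and 0.3).

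**Figure D3:**
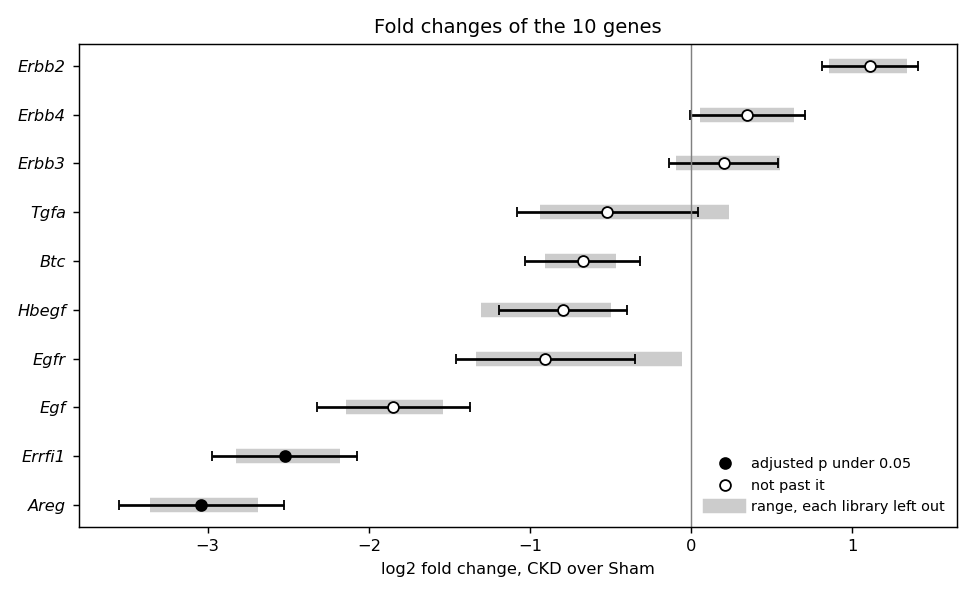
Log2 fold change (CKD over Sham) of each gene with its SE; filled points passed an edgeR adjusted p of 0.05, and grey bars span the values with each library left out in turn. Areg (-3.04) and Errfi1 (-2.52) are filled, and the grey bars of Tgfa and Erbb3 cross 0.

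Levels of different genes were compared per gene length, as TPM (counts per length, scaled to 1 fixed sum in every library). In CKD the order by mean was Egf (318 ± 123 TPM, SD, n = 3), Errfi1 (249 ± 41.8), Erbb3 (101 ± 10.8), Erbb2 (54.0 ± 11.6), Egfr (13.2 ± 3.54), Hbegf (11.4 ± 6.12), Erbb4 (10.2 ± 2.26), Btc (7.54 ± 0.554), Tgfa (2.63 ± 0.719) and Areg (1.18 ± 0.274). In Sham it was Errfi1 (913 ± 528 TPM), Egf (693 ± 106), Erbb3 (56.2 ± 28.8), Egfr (15.99 ± 15.3), Erbb2 (15.6 ± 5.74), Hbegf (12.4 ± 3.66), Btc (7.75 ± 3.57), Areg (5.90 ± 1.81), Erbb4 (5.14 ± 2.46) and Tgfa (2.37 ± 1.93). Means ± SD of neighbours in the CKD order were apart between Errfi1 and Erbb3, Erbb3 and Erbb2, Erbb2 and Egfr, Btc and Tgfa, and Tgfa and Areg. In Sham they were apart between Egf and Erbb3 only, and all other neighbours overlapped. By these means Areg was the last of the 10 in CKD and above Erbb4 and Tgfa in Sham, although in Sham 1 it was the last of the 10 as well. TPM are not scaled between groups by TMM, so differences between CKD and Sham are read from CPM only.

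Egf made up 89.9%, 92.3% and 95.8% of the summed TPM of the 5 ligands in CKD 1, 2 and 3, against 95.8%, 97.4% and 94.6% in Sham 1, 2 and 3. Of the 4 receptors, Erbb3 held the largest share in every library, 54.3% to 59.4% in CKD and 52.3% to 70.5% in Sham. Erbb2 held 28.0%, 34.3% and 28.2% of the receptor TPM in CKD, against 18.4%, 23.6% and 11.7% in Sham. Egfr held 10.9%, 6.25% and 5.62% in CKD, against 4.94%, 17% and 30.9% in Sham. The Erbb2 shares thus did not overlap between the groups, and the Egfr shares did.

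**Figure D4:**
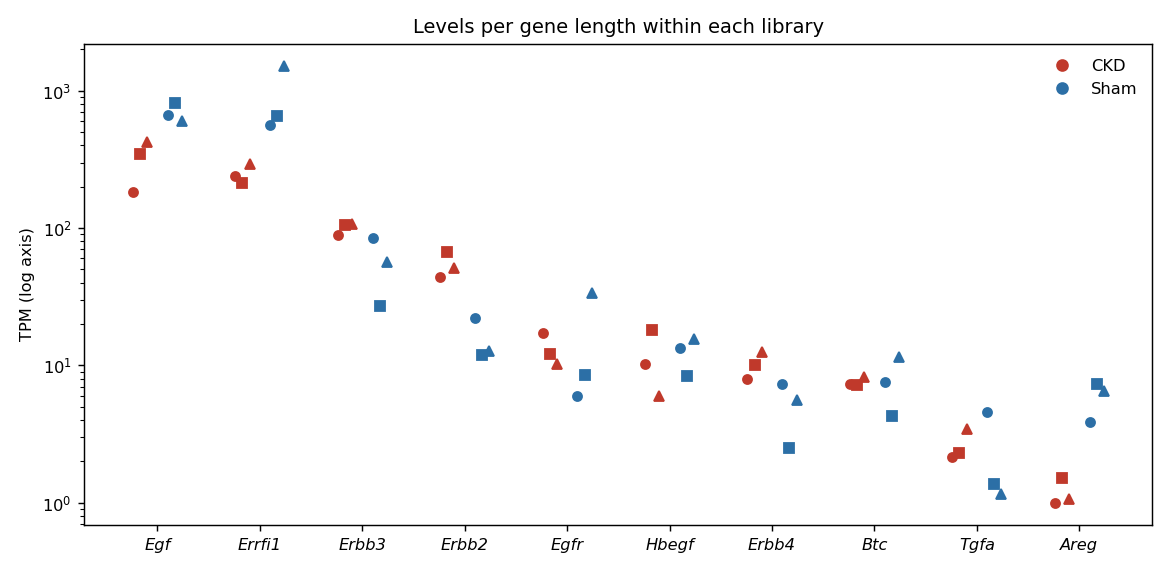
TPM of each gene in each library on a log axis, in the order of the CKD means, with CKD (red) left of Sham (blue) and symbols for the replicate number as in the plot of CPM by library. Egf and Errfi1 lie above the other 8 genes in all 6 libraries, and Areg and Tgfa are at the low end in CKD.

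Other genes of the pathway came from 7 lists and, without the 10 genes above, numbered 109, of which 101 passed the filter on low counts. In edgeR 2 of the 101 were lower and 0 higher (1.98%, beside 1.15% of all genes lower, 2.67% higher and 3.82% in either direction). At an unadjusted p under 0.05 there were 16 lower and 11 higher (26.7%, beside 23.8% of all genes), a share near the background. The same 23.8% stands beside the unadjusted counts of the single lists below. DESeq2 called 15 lower and 8 higher, where it called 7.27% of all genes lower and 8.97% higher. limma-voom called 2 lower and 0 higher, beside 0.488% of all genes lower and 0.781% higher. CKD and Sham did not overlap in 38 of the 101, beside 31.2% of all genes. The genes that fell in edgeR were Dusp5 and Maff.

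Among the 12 genes of ERK feedback, Dusp5, a nuclear phosphatase that switches off ERK and is itself induced by it, fell. It had 226, 318 and 265 counts in CKD 1, 2 and 3, against 573, 728 and 1296 counts in Sham 1, 2 and 3, with no overlap of the scaled levels (log2 fold change -2.16 ± 0.35, SE; edgeR adjusted p = 0.0352). Spry4, a Sprouty inhibitor of the RAS-ERK pathway, stood at 19.8 ± 3.36 CPM in CKD and 45.5 ± 21.4 CPM in Sham (SD, n = 3 each; edgeR adjusted p = 0.0879). Dusp6, the cytoplasmic ERK phosphatase, overlapped between groups, at 33.0 ± 3.20 CPM in CKD and 45.2 ± 28.3 CPM in Sham (SD, n = 3 each; edgeR adjusted p = 0.535). Dusp7 went the other way without overlap, at 78.7 ± 24.7 CPM in CKD and 36.3 ± 13.9 CPM in Sham (SD, n = 3 each; edgeR adjusted p = 0.0995). Of the 12 genes, 5 had a log2 fold change above 0 and 7 below, with 1 higher and 3 lower at an unadjusted p under 0.05. The list had a median log2 fold change of -0.23, beside -0.01 over all genes.

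Among 20 target genes of ERK signalling 18 were tested, and Maff, a small MAF transcription factor, fell. It had 291, 438 and 233 counts in CKD, against 817, 1038 and 1657 counts in Sham (log2 fold change -2.35 ± 0.36, SE; edgeR adjusted p = 0.0316). Fosl2, an AP-1 subunit, stood at 47.9 ± 17.97 CPM in CKD and 148 ± 49.3 CPM in Sham (SD, n = 3 each; edgeR adjusted p = 0.0523). It passed in DESeq2, with RLE or upper-quartile factors, without a filter, with mitochondrial genes removed and without Sham 1, where the adjusted p ran from 0.000405 to 0.0482. The immediate early transcription factor gene Egr2 lay on the other side, with 175, 287 and 70 counts in CKD 1, 2 and 3, against 31, 2 and 7 counts in Sham 1, 2 and 3, and did not pass (edgeR adjusted p = 0.0822). Junb and Ereg, listed at 0 in all libraries, were the 2 genes not tested. The median log2 fold change was 0.00, with 9 genes above 0 and 9 below. At an unadjusted p under 0.05 in edgeR, 3 were higher and 5 lower. Dusp5 and Maff lost their calls without each library but Sham 1. The edgeR adjusted p ran from 0.0589 to 0.169 for Dusp5 and from 0.0522 to 0.165 for Maff. In most of these fits few or no genes of the whole table were called, as given for Areg.

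Of 13 genes of ligand shedding, 0 passed in edgeR, with 3 higher and 1 lower at an unadjusted p under 0.05. Adam17, the main protease that releases amphiregulin, HB-EGF and TGF-alpha, stood at 48.5 ± 6.72 CPM in CKD and 29.1 ± 9.77 CPM in Sham (edgeR adjusted p = 0.162). Adam10, which cuts the precursors of EGF and betacellulin, stood at 82.0 ± 8.38 CPM in CKD and 50.1 ± 19.4 CPM in Sham (edgeR adjusted p = 0.221). Frmd8, which stabilises the iRhom partners of ADAM17, stood at 62.3 ± 4.99 CPM in CKD and 37.4 ± 5.22 CPM in Sham, and the protease Adam19 at 13.3 ± 5.39 CPM in CKD and 4.21 ± 1.57 CPM in Sham (SD, n = 3 each; edgeR adjusted p = 0.0735 and 0.0664). The iRhom gene Rhbdf1 went the other way, with 53.5 ± 1.32 CPM in CKD and 167 ± 92.4 CPM in Sham (edgeR adjusted p = 0.0799). Of the 13 genes, 7 had a log2 fold change above 0 and 6 below. The median of this list was 0.71, the farthest above 0 of the 7 lists. With so even a split the median is the value of Adam10, and the next gene below it was Adam15 at -0.01.

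Of 27 tested adaptors and kinases downstream of the receptors, 0 passed in edgeR, with 1 higher and 3 lower at an unadjusted p under 0.05, and the median log2 fold change was 0.04. The RAS inactivator Rasa1 stood at 43.9 ± 6.82 CPM in CKD and 26.1 ± 0.797 CPM in Sham, and Hras at 32.0 ± 2.23 CPM in CKD and 48.2 ± 6.65 CPM in Sham (SD, n = 3 each; edgeR adjusted p = 0.074 and 0.12). The adaptor Grb2 was among the steadiest, at 109 ± 0.418 CPM in CKD and 103 ± 9.50 CPM in Sham. Mapk3, a kinase that nearly every cell uses, was among the genes listed at 0 in all 6 libraries and is not read as absent.

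Of 20 genes of receptor turnover, 0 passed in edgeR, with 2 higher and 1 lower at an unadjusted p under 0.05, and the median log2 fold change was 0.00. Cbl, a ubiquitin ligase that marks EGFR for breakdown, stood at 26.9 ± 7.12 CPM in CKD and 14.4 ± 0.77 CPM in Sham (SD, n = 3 each; edgeR adjusted p = 0.0814). Its relative Cblb had 527, 499 and 481 counts in CKD 1, 2 and 3, against 366, 1541 and 1451 counts in Sham 1, 2 and 3 (log2 fold change -1.65 ± 0.50, SE; edgeR adjusted p = 0.101). Sham 1 lay apart from the other Sham libraries for Cblb, and without it the log2 fold change was -2.12 (edgeR adjusted p = 0.00593). The fit without Sham 1 called 922 genes lower over the whole table, beside 176 in the main fit.

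EGF also acts on magnesium transport, by raising the activity of the TRPM6 channel in the distal convoluted tubule. Of 9 tested genes of that list other than Egf, 0 passed in edgeR, and with Egf there were 0 higher and 3 lower at an unadjusted p under 0.05. Trpm6 stood at 29.3 ± 3.43 CPM in CKD and 32.7 ± 22.1 CPM in Sham (edgeR adjusted p = 0.867). Cldn16, a tight junction protein of magnesium uptake in the thick ascending limb, stood at 17.8 ± 2.50 CPM in CKD and 33.7 ± 7.93 CPM in Sham (SD, n = 3 each; edgeR adjusted p = 0.0785).

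**Figure D5:**
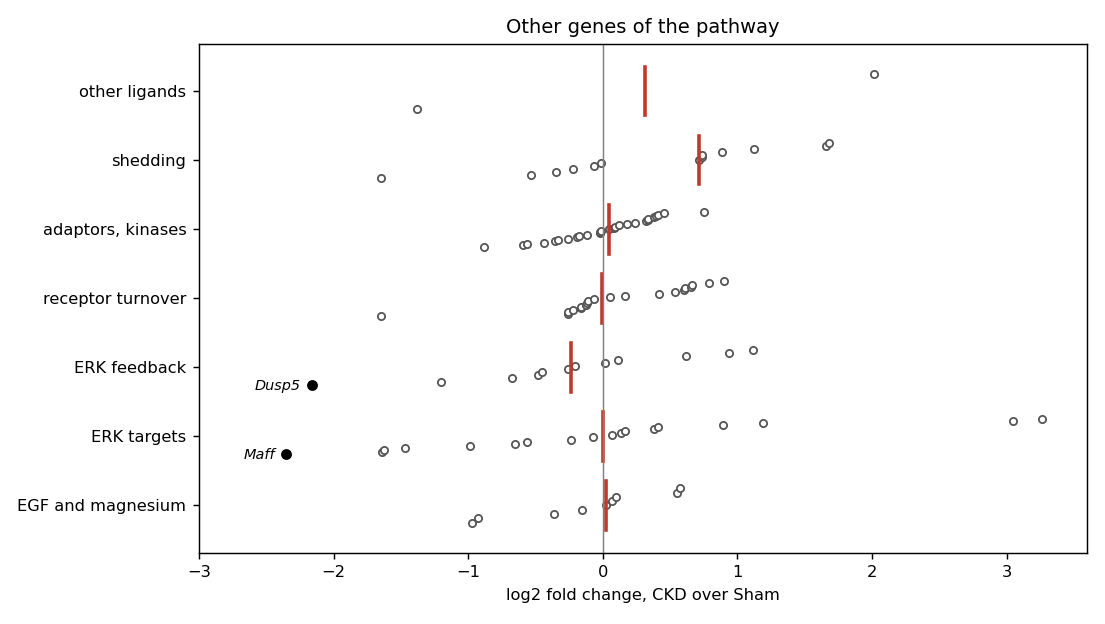
Log2 fold change (CKD over Sham) of the tested genes of 7 pathway lists without the 10 genes of the family; each point is a gene, filled where its edgeR adjusted p passed 0.05, spread vertically only for legibility, and red bars are list medians. Dusp5 and Maff are the filled points, both below -2. The shedding list has the median farthest above 0 (0.71), with 7 genes above 0 and 6 below.

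Genes with a pattern most like that of a member were ranked by Pearson's r of log2 CPM over the 6 libraries, among 9894 genes with a symbol and an average log2 CPM of at least 3. For Errfi1 these were Atl2 (r = 0.998), Cpeb2 (0.997), Rbm33 (0.996), Por (0.994) and Atad3a (0.994), of which Atl2 and Cpeb2 passed the test as lower in CKD. For Egf they were Rnf167 (0.992), C1d (0.988), Tsc22d3 (0.987), Pias2 (0.987) and Ndufa12 (0.986), and for Hbegf Napg (0.993), Btg3 (0.964), Polr3d (0.96), Nr4a1 (0.955) and Jun (0.949). The 6 libraries share the difference between CKD and Sham, so these values describe likeness in this set only.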

How the data were processed

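The deposited table holds the authors' unnormalized counts of each gene in all 6 libraries, beside gene lengths and coordinates. The submitters' processing notes name HISAT2 2.1.0, HTSeq 0.11.2, fastp 0.20.1 and Rnor_6.0, without their roles. No source used here states the strand setting, so overlapping genes may share reads. Libraries were mapped to groups by title. Genes were kept by filterByExpr (minimum count 10, minimum total 15). They were tested with edgeR 4.0.16 (R 4.3.3), TMM factors and a robust quasi-likelihood fit on group, checked on simulated data. The simulated counts had the same spread per gene in both groups, so that check does not cover the wider spread among Sham libraries. SE is the size of the log2 fold change over the root of F. TPM used the deposited gene length. The alternatives included limma-voom (limma 3.58.1) and DESeq2 1.42.0. Replicate libraries differed beyond counting noise, and Sham libraries more than CKD libraries. Chi-square over its degrees of freedom was 25.8 to 56.2 for pairs of CKD libraries and 113.6 to 269.7 for pairs of Sham libraries.

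The members and lists were chosen with earlier results of these data known. Named were all 10 members, the 2 genes with the smallest p of each pathway list and any past the threshold, and for Egf, Hbegf and Errfi1 the 5 genes most like them. Adam10, Adam17, Rhbdf1, Dusp6, Dusp7, Egr2, Grb2, Trpm6, marker genes and genes at 0 were named after their values were seen.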

Additional observations from a re-analysis of the deposited data

How the results depend on the processing

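The 10 genes kept their direction in 158 of 160 refits (10 genes under 16 alternatives). With a library left out, the log2 fold change ran from -0.94 to 0.24 for Tgfa (positive without Sham 1) and from -0.095 to 0.55 for Erbb3 (negative without Sham 2). Of the 10, 2 were lower and 0 higher. DESeq2 and library totals alone each gave 1 higher (Erbb2), limma-voom gave 1 lower (Errfi1), and the replicate block gave 0 lower. With each library left out the counts were 0 to 1 higher and 0 to 2 lower. Of the pathway genes 8 were higher and 15 lower in DESeq2, 15 higher with library totals alone, 4 lower without a filter, and 0 lower with the replicate block. With a library left out they were 0 to 5 higher and 0 to 9 lower. Over all genes 411 were higher and 176 lower. There were 1379 and 1118 in DESeq2, 120 and 75 in limma-voom, 2047 higher with library totals alone, and 0 to 789 higher and 0 to 922 lower with a library left out. Without CKD 1 and without CKD 2, 2330 and 2312 genes still had an unadjusted p under 0.05. The cause was not tested, beyond fewer samples in the last. Deviations of same-numbered libraries correlated at -0.21, 0.00 and -0.16, and no library correlated best with its own number. These values show no pairing by replicate number, but 3 libraries per group are too few to exclude one. With the replicate block 4 genes were higher and 6 lower. With TMM-scaled CPM per length in place of TPM, 10 of 10 genes kept their place in the order in CKD and 8 of 10 in Sham. Counts of 9 to 14 limit the precision for Areg in CKD.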
